A study of Mus musculus with 8 samples.

Results

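Bone marrow (BM) stroma was read here through 10 genes, Cxcl12, Col1a1, Col1a2, Col3a1, Sparc, Lepr, Kitl, Angpt1, Fn1 and Cdh5, chosen by name as genes of the marrow niche, without a threshold on their values. The choice was made with earlier results of these data known. All 10 were among the 13305 genes of the count table. The table held RNA-seq of whole BM from 8 C57BL/6N mice of an AML model, 1 library per mouse. Every mouse carried Mx1-Cre, a single intact Dnmt3a allele (Dnmt3a+/-) and the Flt3 internal tandem duplication on both alleles (Flt3ITD/ITD). The groups differed in Gab2, the gene of a docking protein in receptor tyrosine kinase signalling. The 3 AML WT mice were Gab2+/+, the 2 AML HET mice Gab2+/- and the 3 AML KO mice Gab2-/-. AML here names the driver genotype: the paper found hardly any blasts in blood smears of AML KO mice. Gab2 genotype and disease burden therefore cannot be told apart. The age of these mice is not given in the sources used here. The floxed Dnmt3a allele was recombined by Cre activity without induction. Mx1-Cre is active in blood cells and not in them alone, the Gab2 knockout is germline and so present in stroma too, and no stromal cells were isolated.

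The marrow niche is a scaffold of rare mesenchymal, bone-forming and endothelial cells among far more numerous blood cells. Perivascular mesenchymal cells, which carry the leptin receptor Lepr, secrete the chemokine Cxcl12 and the growth factor Kitl, which hold and feed stem and progenitor cells through the receptors Cxcr4 and Kit. Osteoblasts and fibroblasts lay down type I collagen, a triple helix of Col1a1 and Col1a2 chains. Around it lie Col3a1 (type III collagen), Sparc (a collagen-binding protein rich in bone) and Fn1 (fibronectin). Angpt1 is a ligand of the endothelial receptor Tek, and Cdh5 is the cadherin of endothelial junctions. Several of these genes are not stromal alone: Sparc is abundant in megakaryocytes and platelets, Fn1 is made by monocytes and macrophages, and Angpt1 is also expressed by hematopoietic progenitors and megakaryocytes.

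Sequence just before the start of transcription gives the context in which these genes are expressed. RefSeq windows of 250 bases before a start were found for 6 of the 10 genes (GRCm38.p6). The windows of Cxcl12, a perivascular gene, and Col3a1, a fibrillar collagen, are shown because they contain no annotated exon and stand at opposite ends of base composition, with 64.4% and 35.2% G or C. Capitals mark every match to a searched motif, on either strand.
Cxcl12, chr6:117168285-117168534, + strand: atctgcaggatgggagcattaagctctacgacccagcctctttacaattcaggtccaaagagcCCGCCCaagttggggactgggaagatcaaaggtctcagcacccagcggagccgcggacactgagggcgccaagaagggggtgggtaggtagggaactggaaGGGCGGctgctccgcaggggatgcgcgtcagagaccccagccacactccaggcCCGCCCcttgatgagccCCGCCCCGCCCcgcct
Col3a1, chr1:45311288-45311537, + strand: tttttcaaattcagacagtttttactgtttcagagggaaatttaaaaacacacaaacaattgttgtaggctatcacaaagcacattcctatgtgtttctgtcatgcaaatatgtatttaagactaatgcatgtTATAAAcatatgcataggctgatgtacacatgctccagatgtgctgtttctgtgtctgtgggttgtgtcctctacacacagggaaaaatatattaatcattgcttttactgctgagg

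The motifs searched, on both strands, were TATAAA, the letters of a TATA box and found in 12.4% of all 32851 windows, and CCAAT, the CCAAT box, found in 33.8%. GGGCGG, the GC box, was found in 32.7%, and TTCNNNGAA, a form of site that Stat factors bind, in 7.02%. None of these motifs overlaps another by its letters. Cxcl12 held 5 matches to GGGCGG, of which a pair overlapped, and none to the other motifs. Col3a1 held a single TATAAA, which began 117 bases before the start. Among the members with windows not shown, Kitl held 1 TATAAA and 3 GGGCGG, Col1a2 1 CCAAT and 2 GGGCGG, and Sparc none of the 4. Lepr has 2 windows, with a CCAAT in the first and a GGGCGG in the second. No member window held TTCNNNGAA.

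Libraries ranged from 28009258 to 39266815 counts, and the lowest count of any member in any mouse was 55. Gab2 itself averaged 74.7 ± 17.0 CPM (counts scaled to library size; mean ± SD, n = 3) in AML WT, 53.3 ± 3.57 (n = 2) in AML HET and 40.8 ± 6.15 (n = 3) in AML KO BM. The groups did not overlap, in the order of the labels, although the remaining reads cannot be placed within the gene because the counts are per gene. The log2 fold change of Gab2 in AML KO against AML WT was -0.87 (SE 0.18, adjusted p = 0.0420 by edgeR's quasi-likelihood test). Adjusted p lay between 0.0302 and 0.159 when single mice were left out. Here and below, rose and fell mean an adjusted p under 0.05. Blood cell markers also moved with genotype. In AML KO 17 of 19 megakaryocyte and platelet markers rose, 21 of 23 erythroid markers and 6 of 15 neutrophil markers, beside 2.09% of all genes called in either direction. Without AML WT replicate 2 these counts of calls were 12, 0 and 0, beside 0.301% of all genes. The levels still differed in that fit: 19, 23 and 14 of these markers were higher in AML KO. Their medians were 2.86, 3.78 and 2.06 on the log2 scale. AML KO replicate 2 stood apart from the other AML KO mice in stromal genes, as described next. Values with and without that library are therefore given for the members it moved and for the stromal, macrophage, receptor and protease lists. The library was singled out by its high values in these genes, so the fits without it show its weight and are no test.

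Genes used as markers of mesenchymal, bone-forming and endothelial cells were counted in the libraries of all 3 groups. In the table were 18 of 22 mesenchymal niche cell markers, 13 of 18 osteoblast and osteocyte markers and 34 of 39 endothelial markers. None of these had a count of 0 in any mouse, but only 15 of all 13305 genes in the table did. Some of them, such as Vcam1, Spp1 and Tie1, are also made by other cells, as given below. Among those not in the table were Grem1 and Bmp4 of the first list, Mepe and Phex, which mark osteocytes, and Lyve1 and Nos3 of the endothelium. Summed over each list, the level ran from 494 to 783 CPM for mesenchymal cells, from 133 to 242 CPM for bone-forming cells and from 334 to 541 CPM for endothelium. Against this stood 3841 to 4589 CPM for 5 genes of all blood cells (Ptprc, Coro1a, Laptm5, Spi1 and Cd53), of which 0 passed between AML KO and AML WT.

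Set per length of transcript (RPKM, the CPM divided by the kilobases of merged exon), the members spanned a wide range of levels. Fn1 was the most abundant, with a median over 8 mice of 112 RPKM (59.6 to 262). Col1a1 followed at 46.7 RPKM (25.5 to 98.5), Sparc at 31.6 (18.3 to 50.2) and Col1a2 at 19.4 (9.83 to 37.3). These 4 matrix genes lay above the niche factors: Cxcl12 had a median of 7.59 RPKM (6.73 to 19.2) and Angpt1 one of 2.94 (1.89 to 3.62). Cdh5 reached 1.30 RPKM (0.654 to 2.95), Col3a1 0.664 (0.553 to 1.0), Lepr 0.468 (0.288 to 0.883) and Kitl 0.434 (0.304 to 0.917).

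Of neighbours in that order, only Cxcl12 and Angpt1 had ranges that did not overlap over the 8 mice. Within a mouse the order was steadier: each gene lay above the next in 8 of 8 mice, except Col1a2 above Cxcl12, in 7, and Lepr above Kitl, in 4. Lepr and Kitl therefore had no order. The length counted matters for the collagens. With the longest coding transcript as the length, a choice made after seeing the data, Sparc (52.1 RPKM), Col1a1 (51.7) and Col1a2 (45.1) came close together, and Sparc and Col1a1 exchanged ranks.

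**Figure D1:**
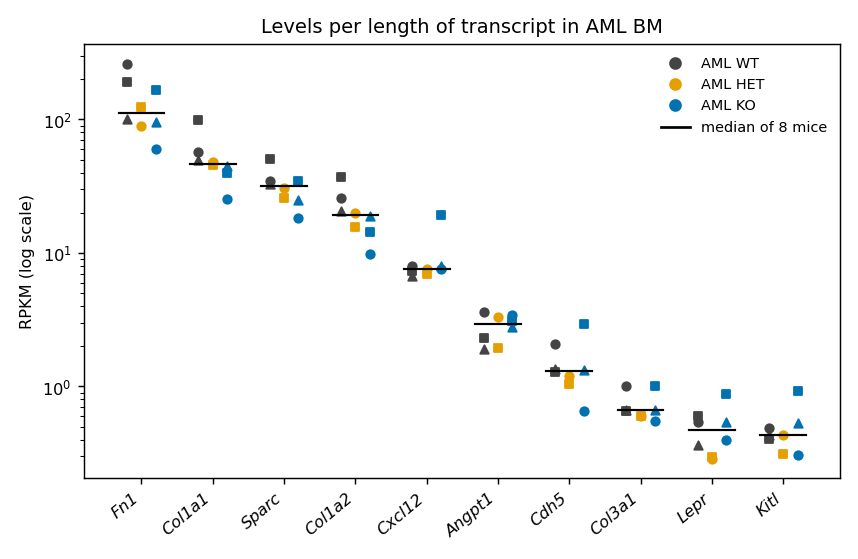
RPKM of the 10 genes on a log scale, ordered by median. Each point is a mouse (circles replicate 1, squares replicate 2, triangles replicate 3; AML WT grey, AML HET orange, AML KO blue) and the bar is the median of 8 mice, from 112 for Fn1 down to 0.434 for Kitl.

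Do the levels of niche genes depend on Gab2? When AML KO was set against AML WT, 0 of the 10 genes passed an adjusted p of 0.05 in edgeR, beside 2.09% of all 13305 genes tested. At an unadjusted p under 0.05 there were 3 (Col1a1, Col1a2 and Sparc, all lower), beside 17.7% of all genes in either direction and 7.88% lower. DESeq2 called 2, Col1a1 and Col1a2, and limma-voom 0. Of the 10 fold changes 5 were negative and 5 positive, and their median was -0.0059 on the log2 scale. Over all genes tested 6401 were higher and 6904 lower, with a median of -0.017, and in AML HET against AML WT these were 6449, 6856 and -0.0075. In 2 genes, Col1a1 and Col1a2, every AML KO mouse lay below every AML WT mouse, beside 22.1% of all genes without overlap in either direction and 9.83% in that direction. In bulk BM, fewer cells of a type and less RNA per cell cannot be told apart.

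**Figure D2:**
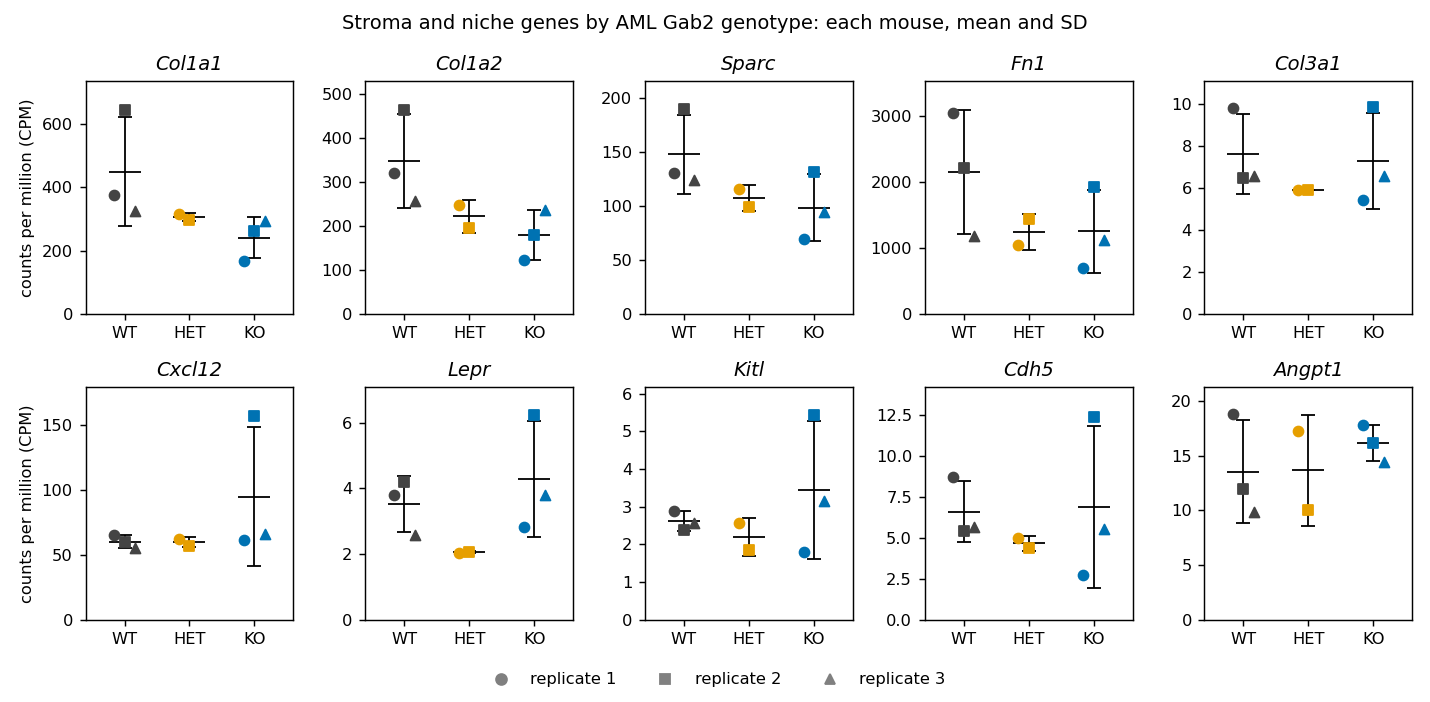
CPM of the 10 genes in every mouse by Gab2 genotype, with the group mean (long bar) and SD (whiskers; n = 3 AML WT, 2 AML HET, 3 AML KO). Col1a1 and Col1a2 are lower in all AML KO mice than in any AML WT mouse, and AML KO replicate 2 (blue square) lies at the top for Cxcl12, Lepr, Kitl and Cdh5.

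The type I collagen chains were lower in AML KO BM in every mouse. Col1a1 (chromosome 11, 94936224 to 94953042, + strand, GRCm38) stood at 377, 646 and 327 CPM in the AML WT mice, 316 and 297 in AML HET and 167, 262 and 293 in AML KO. Both the AML HET mice and the AML KO mice lay below every AML WT mouse, and AML KO lay below AML HET. The means were 450 ± 172, 306 ± 13.5 and 241 ± 65.7 CPM. Against AML WT the log2 fold change in AML KO was -0.90 (SE 0.27, 95% confidence interval -1.52 to -0.29, unadjusted p = 0.00859, adjusted p = 0.161, edgeR). DESeq2 gave an adjusted p of 0.0289 for it. AML WT replicate 2 was the highest library, and without it the change was -0.55.

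Col1a2 (chromosome 6, 4504814 to 4541544, + strand), the partner chain, behaved much the same. It measured 319, 464 and 255 CPM in AML WT, 247 and 195 in AML HET and 122, 178 and 236 in AML KO BM. AML HET and AML KO overlapped, and both lay wholly below AML WT. The change in AML KO against AML WT was -0.95 (SE 0.27, interval -1.56 to -0.35, unadjusted p = 0.00575, adjusted p = 0.131, edgeR; 0.0164 in DESeq2), and it was -0.69 without AML WT replicate 2. An exact two-sided permutation test gave p = 0.1 for each of the chains, which is the smallest that 3 against 3 mice allow. Fitted as a slope over the number of intact Gab2 alleles in all 8 mice, Col1a1 had a slope of 0.45 (adjusted p = 0.111) and Col1a2 one of 0.48 (adjusted p = 0.0886) on the log2 scale per allele. By edgeR 0 of the 10 genes passed this test, beside 2.64% of all genes, and 3 had an unadjusted p under 0.05, beside 20.2% of all genes; DESeq2 passed both collagen chains.

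The chains moved in step. Their log2 ratio, Col1a1 over Col1a2 in CPM, spanned only 0.37 over the 8 mice while Col1a1 against Col3a1 spanned 1.90. In AML KO the ratio of the type I chains was 0.44 ± 0.12 and in AML WT 0.36 ± 0.12, a difference of 0.083 (exact permutation p = 0.5, 0.5 after adjustment over 6 ratios). Per length of merged exons Col1a1 was 2.23 to 2.88 times as abundant as Col1a2, and 1.06 to 1.37 times per length of the longest coding transcript. Among all 13304 other genes, Col1a2 was the closest to Col1a1 in its profile over the mice and Col1a1 the closest to Col1a2. The root mean square difference of their centred log2 CPM was 0.117, against 0.509 and 0.536 for the spread of either gene itself. Next to Col1a1 came Col11a1 (0.196), another fibrillar collagen chain, and Bmt2 (0.201); next to Col1a2 came Zc3h11a (0.216) and Bmt2 (0.221).

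Sparc (chromosome 11, 55394500 to 55423183, - strand) had the same direction with overlap. Its levels were 130, 190 and 124 CPM in AML WT, 116 and 98.6 in AML HET, and 69.4, 131.5 and 94.2 in AML KO BM. AML KO replicate 2 reached the AML WT range, the other AML KO mice lay below it, and both AML HET mice lay below all AML WT mice. The change in AML KO against AML WT was -0.59 (SE 0.24, interval -1.13 to -0.050, unadjusted p = 0.0353, adjusted p = 0.259, edgeR). Without AML KO replicate 2 it was -0.86. It was -0.39 with AML KO replicate 1 left out, and -0.37 with AML WT replicate 2 left out. The profiles closest to that of Sparc were those of Col5a2 (0.069), a fibrillar collagen, and Pcolce (0.146), which promotes the cleavage of procollagen, followed by Irf2bpl (0.15). Megakaryocyte and platelet markers had medians of 2.69, 2.55 and 2.61 in the AML KO mice on the log2 scale against the AML WT mean. Their part in the level of Sparc was not tested.

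Fn1 (chromosome 1, 71585520 to 71653200, - strand) varied widely within AML WT as well as AML KO BM. The AML WT mice showed 3057, 2214 and 1174 CPM, the AML HET mice 1046 and 1439, and the AML KO mice 697, 1933 and 1118. Every group overlapped with every other. The change in AML KO was -0.78 (SE 0.40, interval -1.68 to 0.12, adjusted p = 0.326, edgeR). Leaving out AML KO replicate 2 gave -1.24. Leaving out AML WT replicate 1 gave -0.45, and leaving out AML KO replicate 1 gave -0.49. Macrophage and monocyte markers, genes of cells that also make fibronectin, had medians against the AML WT mean of -0.049, -0.10 and 0.11 in the AML WT mice and -0.52, 0.14 and -0.52 in the AML KO mice. Among the AML KO mice replicate 2 was highest for both, while among the AML WT mice Fn1 was lowest where these markers were highest. Their part in the level of Fn1 was not tested. Of 19 such markers 12 were lower in AML KO and 7 higher. Mrc1 and Axl fell, and Slc40a1, Vcam1 and Cd5l rose (26.3% of the list, beside 2.09% of all genes). None of these 5 calls held without AML WT replicate 2, and only that of Slc40a1 held when AML KO replicate 3 was left out. Without AML KO replicate 2, 15 of the markers were lower and 4 higher, with a median of -0.52. Closest to Fn1 in profile were Eif4ebp2 (0.18), Cd109 (0.194) and Fzd4 (0.197).

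Type III collagen overlapped between AML KO and AML WT BM. Col3a1 (chromosome 1, 45311538 to 45349706, + strand) was low throughout, at 9.81, 6.48 and 6.55 CPM in AML WT, 5.89 and 5.89 in AML HET, and 5.43, 9.83 and 6.57 in AML KO BM. AML KO replicate 2 reached the highest AML WT value, the other AML KO mice lay at the low end of AML WT or under it, and the AML HET mice lay below AML WT. The change in AML KO was -0.069 (SE 0.27, interval -0.66 to 0.53, adjusted p = 0.903, edgeR). It was -0.34 without AML KO replicate 2. Leaving out AML WT replicate 1 gave 0.15. The log2 ratio of Col3a1 to Col1a1 was 0.79 higher in AML KO than in AML WT (-5.05 ± 0.38 against -5.85 ± 0.71, exact permutation p = 0.2, adjusted p = 0.4), which was not beyond the spread of the mice. Pnpla2 (0.0729), Slc39a11 (0.0781) and Cyth3 (0.0863) had the profiles closest to that of Col3a1.

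The perivascular genes were highest in a single library. Cxcl12 (chromosome 6, 117168535 to 117181367, + strand) was the steadiest member outside it: 65.5, 59.9 and 55.0 CPM in AML WT, 62.4 and 57.0 in AML HET, and 61.7 and 65.8 in AML KO replicates 1 and 3. AML KO replicate 2 stood at 157 CPM, 2.46 times the mean of the other AML KO mice. With it the change in AML KO against AML WT was 0.66 (SE 0.31, interval -0.047 to 1.36, unadjusted p = 0.0641, adjusted p = 0.305, edgeR), and without it 0.084. The closest profiles were those of Scin (0.127), Col6a1 (0.167), a collagen chain, and Heyl (0.169), a Notch target of vascular mural cells. This likeness rests largely on AML KO replicate 2, at 1.39 on the log2 scale against the AML WT mean, with the other mice at -0.125 to 0.134. That library was also highest for Lepr (0.84), Kitl (1.04) and Cdh5 (0.94) and weighs on their likeness below. Whether genes of like profile come from the same cells was not tested.

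Lepr (chromosome 4, 101717404 to 101815352, + strand), the receptor that marks these cells, gave 3.79, 4.20 and 2.57 CPM in AML WT, 2.03 and 2.07 in AML HET, and 2.81, 6.22 and 3.80 in AML KO BM. AML KO replicate 2 was again highest, and both AML HET mice lay below all others. In AML KO against AML WT the change was 0.28 (SE 0.32, interval -0.45 to 1.01, adjusted p = 0.646, edgeR), -0.089 without AML KO replicate 2 and 0.51 when replicate 1 was left out instead. AML KO against AML HET gave the largest fold change of Lepr, 1.06 (SE 0.38, unadjusted p = 0.0206, adjusted p = 0.767, edgeR), and 0.68 without that library. Cxcl14 (0.191), a chemokine of marrow stroma, Selenom (0.195) and Gnb5 (0.203) were the genes closest to Lepr.

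Kitl (chromosome 10, 100015630 to 100100416, + strand), the ligand of Kit, was measured at 2.90, 2.37 and 2.57 CPM in AML WT, 2.56 and 1.85 in AML HET, and 1.80, 5.42 and 3.15 in AML KO BM. The AML KO mice included both the lowest and the highest value. The change was 0.40 (SE 0.38, interval -0.44 to 1.24, adjusted p = 0.565, edgeR), -0.075 without AML KO replicate 2 and 0.71 when replicate 1 was left out instead. Kitl lay closest to Igsf3 (0.172), Rgs5 (0.191), a pericyte gene, and Fstl1 (0.197). Of the other members, Kitl and Cxcl12 were closest to each other (0.239), with 24 genes nearer to Cxcl12 and 12 nearer to Kitl. The log2 ratio of Kitl to Cxcl12 differed by -0.25 between AML KO and AML WT (exact permutation p = 0.4, adjusted p = 0.48) and that of Cxcl12 to Lepr by 0.29 (p = 0.2, exact permutation, adjusted p = 0.4).

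Cdh5 (chromosome 8, 104101625 to 104144511, + strand) stood for the endothelium. It reached 8.75, 5.41 and 5.66 CPM in AML WT, 5.01 and 4.37 in AML HET, and 2.75, 12.4 and 5.54 in AML KO BM. Its lowest and highest values were both in AML KO mice, and both AML HET mice lay below AML WT. The change was 0.057 (SE 0.46, interval -0.97 to 1.08, adjusted p = 0.954, edgeR), and without AML KO replicate 2, which had 3.0 times the mean of the other AML KO mice, it was -0.67 (adjusted p = 0.256). Without AML KO replicate 1 it was 0.44. Against Cxcl12, which shared the high library, the log2 ratio of Cdh5 lay below all AML WT values in every AML KO mouse, at -3.91 ± 0.51 against -3.22 ± 0.29. That difference of -0.69 had an exact permutation p of 0.1, the smallest possible, and an adjusted p of 0.4. Nid1 (0.104), a basement membrane protein, Antxr1 (0.148) and Arsb (0.174) were closest to Cdh5.

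Angpt1 (chromosome 15, 42424723 to 42676977, - strand) followed none of the others. Its levels were 18.8, 11.9 and 9.86 CPM in AML WT, 17.3 and 10.1 in AML HET, and 17.8, 16.2 and 14.5 in AML KO BM. The AML KO mice were close together and inside the AML WT range, and AML KO replicate 2 had 1.0 times the mean of the other AML KO mice. The change was 0.25 (SE 0.27, interval -0.36 to 0.86, adjusted p = 0.617, edgeR), and it ran from 0.072 without AML WT replicate 3 to 0.56 when AML WT replicate 1 was the mouse left out. Dio2 (0.124), Aff3 (0.141) and Il1r1 (0.154) were closest to it, and among the members Col3a1 was (0.375), with 3883 genes nearer.

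**Figure D3:**
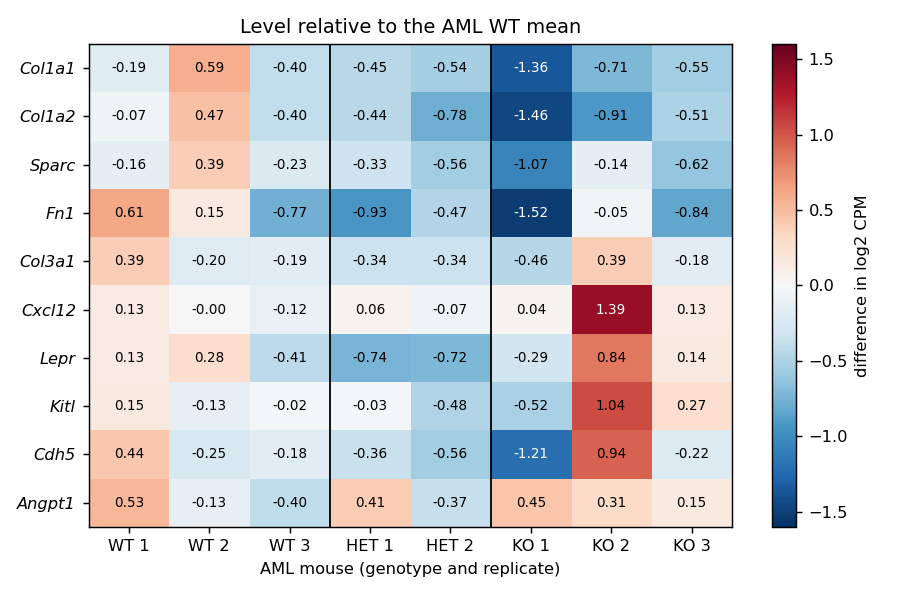
Log2 CPM of each gene in each mouse as a difference from the AML WT mean, red above and blue below. Col1a1 and Col1a2 are blue in all AML KO mice (-0.51 to -1.46), whereas AML KO replicate 2 is red for Cxcl12 (1.39), Kitl (1.04), Cdh5 (0.94) and Lepr (0.84).

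With AML KO replicate 2 left out, 8 of the 10 members were lower and 2 higher in AML KO than in AML WT, with a median of -0.51. Again 0 passed, beside 2.78% of all genes, and 4 had an unadjusted p under 0.05, beside 24.3%. Leaving out a library chosen for its high values had to lower the members it raised. Other mice left out gave another split: 6 higher and 4 lower without AML WT replicate 1 (median 0.227), and the same counts without AML KO replicate 1 (median 0.14). In AML KO replicate 2, Col1a1, Col1a2 and Angpt1 were at 1.14, 0.995 and 1.0 times the mean of AML KO replicates 1 and 3, while the other 7 members were at 1.61 to 3.0 times that mean.

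**Figure D4:**
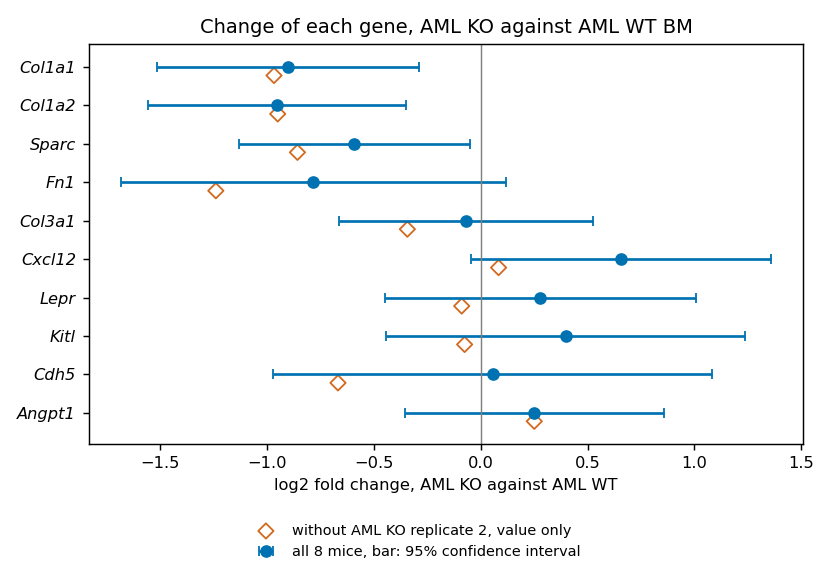
Log2 fold change of each gene in AML KO against AML WT BM from all 8 mice (blue, with 95% confidence interval) and without AML KO replicate 2 (open diamonds, value only). The intervals of Col1a1, Col1a2 and Sparc exclude 0 before adjustment over all genes, and leaving the library out moves Cxcl12 from 0.66 to 0.084 and Cdh5 from 0.057 to -0.67.

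Loss of a single Gab2 allele was compared in AML HET against AML WT BM, which shares its AML WT mice with the comparison above. By edgeR 0 of 10 members passed, beside 0.0225% of all genes, and 0 had an unadjusted p under 0.05, beside 2.47% of all genes. DESeq2 and limma-voom also passed 0. The changes were negative for 9 of the 10, with a median of -0.48, and Angpt1 was at 0.012. For 6 members (Col1a1, Col1a2, Col3a1, Sparc, Lepr and Cdh5) both AML HET mice lay below every AML WT mouse, beside 8.61% of all genes in that direction and 18.1% in either. The largest were Fn1 at -0.79 (SE 0.46), Lepr at -0.78 (SE 0.38) and Col1a2 at -0.65 (SE 0.30), each with an adjusted p of 0.990. Cxcl12 was at -0.0098 (SE 0.35). In AML KO against AML HET 0 members passed, as did 0% of all genes in edgeR, and DESeq2 also passed 0 of them. At an unadjusted p under 0.05 there was 1, Lepr, beside 5.86% of all genes. Lepr was higher in every AML KO mouse than in both AML HET mice and Col1a1 was lower, beside 24.2% of all genes without overlap.

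Other genes of the same cells were read from lists. Of the 18 mesenchymal niche cell markers measured, 12 were higher and 6 lower in AML KO, with a median of 0.30, and 2 rose (11.1%, beside 2.09% of all genes). These were Igfbp4, an insulin-like growth factor binding protein, at 315, 299 and 323 CPM in AML WT and 454, 456 and 472 in AML KO (log2 fold change 0.56, adjusted p = 0.0280, edgeR), and Vcam1, an adhesion molecule of stroma, endothelium and marrow macrophages, from 11.9 ± 1.21 to 24.1 ± 6.83 CPM (1.02, adjusted p = 0.0344). The calls were lost in 7 and 6 of the 8 fits that left out a mouse, with an adjusted p of 0.143 for Igfbp4 and 0.150 for Vcam1 without AML WT replicate 2. Without AML KO replicate 2 9 were higher and 9 lower, with a median of -0.037, and 4 passed (22.2%, beside 2.78% of all genes). Igfbp4 and Vcam1 were higher, and Lpl, a lipase, and Ngfr, a neurotrophin receptor, lower. With all mice edgeR put Lpl at -1.28 (adjusted p = 0.0792), Ngfr at -0.81 (adjusted p = 0.127) and Nes, nestin, at -1.46 (adjusted p = 0.214), each below AML WT in every AML KO mouse. Over the list, 3 markers lay below AML WT in this way and 6 lay above it. Of all genes 9.83% lay below, and 22.1% did not overlap in either direction. Adipoq, an adipocyte and Lepr-cell hormone, differed by 2.06 (adjusted p = 0.0611), at 0.344 to 0.949 CPM in AML WT and 1.80 to 3.46 in AML KO.

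Most bone-forming cell genes had the direction of type I collagen. Of 13 measured, 12 were lower in AML KO and 1 higher, with a median of -0.47, and -0.51 without AML KO replicate 2. Per mouse the median of the list was -0.46, -0.34 and -0.42 in AML KO against the AML WT mean, and -0.090 to 0.080 in AML WT. Among them Spp1, osteopontin, a bone matrix protein that macrophages and osteoclasts make too, fell: 87.6, 89.7 and 88.3 CPM in AML WT, 59.1 and 50.0 in AML HET, and 34.0, 32.7 and 33.5 in AML KO (-1.41, SE 0.11, adjusted p = 0.00119, edgeR). Spp1 was the only call of the list (7.69%, beside 2.09% of all genes). That call held in all 8 fits that left out a mouse (adjusted p at most 0.0209, edgeR). Dmp1, an osteocyte matrix protein, was at -1.22 (adjusted p = 0.0944) and Bglap2, an osteocalcin, at -0.89 (adjusted p = 0.262). In the same libraries osteoclast markers had medians of -1.20, -0.37 and -0.84. Of the 9 measured 7 were lower and 2 higher, 2 fell and 1, Mmp9, rose (33.3% of the list, beside 2.09% of all genes). Ctsk and Acp5, the enzymes with which osteoclasts degrade bone, fell by 2.25 and 1.66 on the log2 scale (adjusted p = 0.0131 and 0.0102), calls that ended without AML WT replicate 2. The part of osteoclasts in the level of Spp1 was not tested.

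Other matrix genes shared the split between the AML KO mice. Of 32 collagens and matrix proteins 18 were lower and 14 higher in AML KO, with a median of -0.18. None passed, and 6 had an unadjusted p under 0.05, beside 17.7% of all genes. Without AML KO replicate 2, 30 were lower and 2 higher, with a median of -0.52 and 0 past the threshold. Without AML WT replicate 1, however, 13 were lower and 19 higher, and without AML KO replicate 1 the split was 16 to 16. In AML HET 30 of 32 were lower than in AML WT, with a median of -0.40 and 0 passing. Vcan, the proteoglycan versican, had the largest value, 135, 88.9 and 27.4 CPM in AML WT and 9.58, 23.5 and 16.3 in AML KO (-2.35, adjusted p = 0.0544, edgeR). Thbs1, thrombospondin, also a platelet protein, was at 1.34 (adjusted p = 0.0707) and Mgp at -0.80 (adjusted p = 0.230).

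Of 24 genes that process collagen 20 were lower, with a median of -0.16, and of -0.33 without AML KO replicate 2. Only 1 passed (4.17%, beside 2.09% of all genes). P4ha1, a catalytic subunit of prolyl 4-hydroxylase, fell from 49.2 ± 1.03 to 28.3 ± 4.49 CPM (-0.80, adjusted p = 0.0194, edgeR). That call ended without AML WT replicate 2 (adjusted p = 0.0860), AML KO replicate 1 or AML KO replicate 3. The enzyme Lox, which crosslinks collagen, stood at -0.64 (adjusted p = 0.349), and Pcolce at -0.50 (adjusted p = 0.301).

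Endothelial genes shared with Cdh5 the high AML KO replicate 2. Of 34 measured, 24 were higher and 10 lower in AML KO, with a median of 0.32, whereas without AML KO replicate 2 the split was 15 to 19 and the median -0.10. In that library the median of the list was 0.87 above the AML WT mean. In the other AML KO mice it was -0.032 and -0.022, where Cdh5 was at -1.21 and -0.22. Tie1, an endothelial receptor also present on megakaryocytes, rose: 9.27, 11.8 and 13.4 CPM in AML WT, 14.0 and 15.9 in AML HET, and 27.8, 32.6 and 21.5 in AML KO (1.25, SE 0.20, adjusted p = 0.0152, edgeR; 0.0794 without AML WT replicate 2). Tie1 was the only call of the list (2.94%, beside 2.09% of all genes). Esam and Adgrl4 were at 1.31 (adjusted p = 0.0707) and 0.64 (adjusted p = 0.107) in edgeR.

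**Figure D5:**
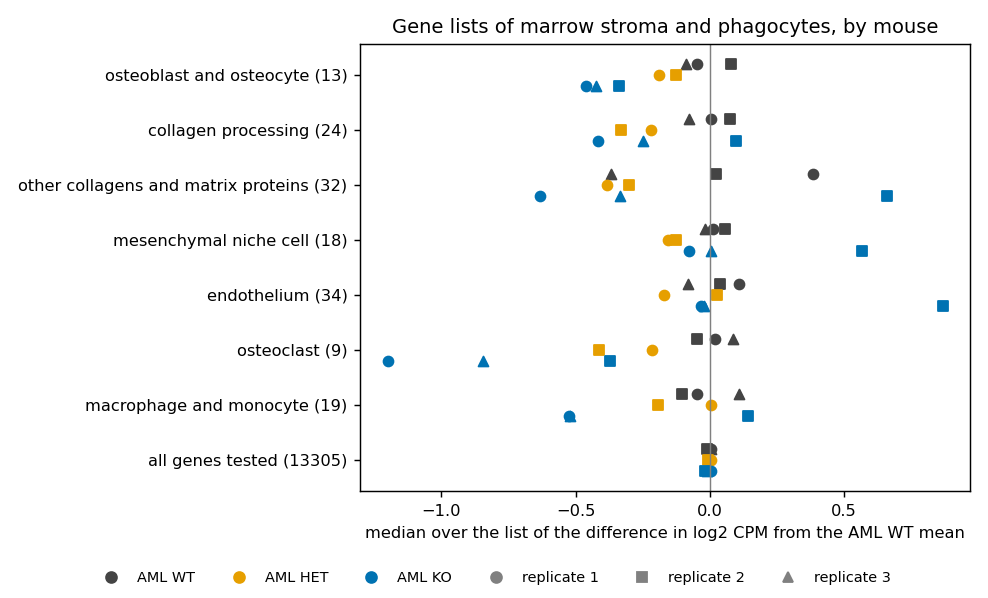
Median over each gene list (number of genes in parentheses) of the difference in log2 CPM from the AML WT mean, per mouse. The bone-forming list is low in all 3 AML KO mice (-0.46 to -0.34), while AML KO replicate 2 is high for endothelium (0.87), matrix (0.66) and mesenchymal cells (0.57).

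Of 22 receptors and partners of the members, many of them on blood cells, 11 were higher and 11 lower, with a median of -0.029, and 4 passed (18.2%, beside 2.09% of all genes). Without AML KO replicate 2, 7 were higher and 15 lower, with a median of -0.245. Cxcr4, the receptor of Cxcl12, stood at 397, 331 and 367 CPM in AML WT and 402, 457 and 440 in AML KO (0.25, adjusted p = 0.308, edgeR), and Kit at 0.082 (adjusted p = 0.831). Tek, the receptor of Angpt1, was at 0.20 (adjusted p = 0.817). The fibronectin receptor chains Itgb1 and Itga4 were at -0.31 (adjusted p = 0.248) and -0.70 (adjusted p = 0.218). Those that passed were Ddr1, a collagen receptor, which fell from 28.9 ± 2.81 to 12.4 ± 2.59 CPM (-1.23, adjusted p = 0.0156), and Tie1, Itga2b and Gp6, which rose. Gp6, the collagen receptor of platelets, and Itga2b, a platelet integrin chain, rose by 2.94 and 2.84 on the log2 scale with 15 of the other 17 megakaryocyte and platelet markers. Adjusted p exceeded the threshold without AML WT replicate 2 for Ddr1, Gp6 and Tie1, and without AML KO replicate 3 for Ddr1.

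Of 24 proteases, inhibitors and collagen uptake receptors 10 were higher and 14 lower, and 12.5% passed, beside 2.09% of all genes. Without AML KO replicate 2, 6 were higher and 18 lower, with a median of -0.315. Mmp9, a gelatinase stored by neutrophils, rose from 60.4 ± 19.8 to 131 ± 29.4 CPM (1.12, adjusted p = 0.0460, edgeR), a call lost in 7 of the 8 fits that left out a mouse. Ctsk, named above, and Mrc1, a macrophage receptor that takes up collagen (-0.87, adjusted p = 0.0156), fell. Leaving out AML WT replicate 2 ended both calls, and for Mrc1 so did leaving out AML KO replicate 1 or 3.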

How the data were processed

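RNA-seq of BM was measured in 8 mice (3 AML WT, 2 AML HET, 3 AML KO). RNA came from freshly isolated BM and was sequenced on an Illumina HiSeq4000. Values were deposited by the authors as raw counts per gene, not normalized. Per the submitters' processing notes the tools were Trimmomatic (0.36) and STAR (2.5.2b) with build mm10; the counter, annotation and strand setting are not given in the sources used here. The deposited table held 13305 genes, of which the lowest summed to 106 counts over 8 mice, so genes expressed at very low levels were not analysed here.

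Samples were grouped by the genotype in the labels. The counts were scaled by TMM and fitted with edgeR 4.0.16 (robust quasi-likelihood, R 4.3.3) over all 8 mice with genotype as the only term; filterByExpr removed 0 genes. A second fit used the number of intact Gab2 alleles (2, 1, 0). P-values were adjusted by Benjamini-Hochberg over all genes, with a threshold of 0.05, and the fits were tested on simulated data. There 100 genes changed 2-fold and 100 changed 4-fold between AML WT and AML KO, with AML HET midway on the log2 scale. AML KO against AML WT found 53 and 97 of them, and AML HET against AML WT found 3 and 35. Most changes of that size were therefore missed in AML HET. CPM used TMM-scaled totals, log2 CPM a prior count of 2, and RPKM the merged exon length of GENCODE M21 (GRCm38), from which gene positions were taken. Ratios of members were compared by exact two-sided permutation tests. Likeness of genes was the root mean square difference of centred log2 CPM over 8 mice, a description without a test.

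The members and gene lists were chosen with earlier results of these data known. Named are Gab2, all members, of each stromal, receptor and protease list the genes past the threshold or otherwise those with the smallest p, and the 3 genes most like each member; further genes (known partners of members, Dmp1, Bglap2, Adipoq, Lpl, Ngfr, Nes, Lox, Pcolce, Esam and Adgrl4) were named after their values were seen, and blood cell lists are given mainly as counts. Alternatives were DESeq2 1.42.0, limma-voom (limma 3.58.1), upper-quartile scaling, library totals, scaling without blood cell genes, other filters, a replicate block, AML WT and AML KO mice only, and leaving out each mouse. Each mouse gave 1 library, so p-values measure the spread between these mice.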

Additional observations from a re-analysis of the deposited data

How the results depend on the processing

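In edgeR 0 members passed in AML KO against AML WT under every alternative run, and DESeq2 passed 2, Col1a1 and Col1a2. Of 330 values of the members in that comparison and per allele under alternatives, 309 kept their direction and side of the threshold, 4 newly passed (the collagen chains in DESeq2) and 17 changed sign. When a mouse was left out, the change in AML KO against AML WT ran from -0.34 to 0.15 for Col3a1 (above 0 at 0.10 without AML KO replicate 1), from -0.089 to 0.51 for Lepr, from -0.075 to 0.71 for Kitl and from -0.67 to 0.44 for Cdh5. It was also below 0 for Cdh5 without AML WT replicate 2 (-0.068) or 3 (-0.038), in limma-voom (-0.21) and with the replicate block (-0.053). The slope per Gab2 allele ran from -0.086 to 0.18 for Col3a1, from -0.25 to 0.079 for Lepr, from -0.33 to 0.049 for Kitl and from -0.19 to 0.34 for Cdh5, which was at 0.11 in limma-voom and 0.038 with the replicate block. The sign changed without AML KO replicate 2 for Lepr, Kitl and Cdh5 and without AML WT replicate 1 for Col3a1, whose slope was also at -0.029 without AML KO replicate 1; that of Cdh5 was 0.0069 without AML WT replicate 2. The causes were not tested.

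Genes past the threshold numbered 278 in AML KO against AML WT, 730 in DESeq2 and 40 (without AML WT replicate 2) to 370 (without AML KO replicate 2) when a mouse was left out. For AML HET against AML WT there were 3, with 59 in DESeq2, 1 in limma-voom and 1 to 5 with a mouse left out. For AML KO against AML HET there were 0, with 77 in DESeq2 and 0 to 4 with a mouse left out; 780 had an unadjusted p under 0.05. For the allele number there were 351, with 865 in DESeq2 and 137 to 525 with a mouse left out. Scaling by library totals shifted the median of all genes by -0.06. Per length of the longest coding transcript, an alternative added after seeing the data, the medians of Col1a2, Col3a1 and Sparc moved to 45.1, 1.17 and 52.1 RPKM.

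The same replicate numbers occur in each genotype, and a replicate block was fitted. It left 19 genes in AML KO against AML WT, 0 in AML HET against AML WT and 125 for the allele number, and passed 0 members. Deviations of same-numbered mice from their group means had correlations from -0.51 to 0.29 over the genes. With 2 or 3 mice a group these deviations sum to 0 within each group. The correlations therefore cannot decide whether the numbers pair the mice. With 2 or 3 mice a group, a change that missed the threshold is not shown to be absent.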
